A study of Mus musculus with 4 samples.

Results

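The genes described here encode enzymes of the lysosome, proteins of its membrane, subunits of its proton pump and Tfeb, a transcription factor of lysosomal genes. The set holds 39 genes listed by symbol for these roles, and each was represented by the probe set with the highest mean log2 over the arrays among those annotated to 1 gene symbol. Of the 39 genes, 37 were measured in this way, out of 18194 genes in all, and the 37 all lay among the 11345 genes above the filter on low values, which was the 50th percentile of the mean log2 intensities. Cd63 and Atp6v0c have no probe set under that name in the annotation used and were not analysed here.

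The arrays, 4 Affymetrix mouse chips, were made to see which genes respond in myeloid-derived suppressor cells (MDSCs) when lnc-C/EBPβ, a long noncoding RNA studied for its part in their differentiation, is knocked down or supplied in excess. Fresh bone marrow cells of C57BL/6 mice received a lentivirus and were then kept for 4 days in medium with GM-CSF and IL-6. The kdLNC group received an shRNA lentivirus against the RNA that the labels call lncMDSC, and kdNC a control shRNA lentivirus. The oeLNC group received a lentivirus for overexpression of that RNA, and oeNC the overexpression control lentivirus. Every group is 1 culture on 1 array, so no difference has a replicate error or a test, and precision is limited by that number of arrays. That lncMDSC is lnc-C/EBPβ was taken from the paper. No probe set carries the name of the targeted RNA in the annotation used, so its level is not given here, and the knockdown and the overexpression therefore rest on the labels.

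Lysosomes are acidic compartments in which hydrolases break down proteins, lipids, glycans and nucleic acids taken up from outside or delivered by autophagy. Their low pH is kept by the V-ATPase, a rotary pump whose V1 sector hydrolyses ATP in the cytosol while its membrane sector, V0, carries protons into the lumen. Loss of single enzymes causes lysosomal storage diseases, and in phagocytes the same compartments digest engulfed particles. Many lysosomal genes carry the CLEAR element, a sequence built around an E-box that TFEB and its relatives bind.

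The E-box was therefore looked for in the promoters of these genes, in the windows of 300 bases that RefSeq gives on GRCm38.p6, from 250 bases before the annotated start to 50 bases after it. Windows were found for 34 of the 39 genes (39 windows). The E-box CACGTG, a palindrome that reads the same on both strands, was in 10 of the 39 windows (25.6%), against 7.15% of all 32851 windows. Its extended form TCACGTGA, also a palindrome and counted among the E-boxes too, was in 5 windows (12.8%), against 0.974% of all windows. Below are the stretches around the matches in the 5 genes with the extended form and in Lamp1, Atp6v0b and Naglu, whose levels are given later. Each reads 5′ to 3′ on the strand of the gene, with the E-box in capitals and, for the extended form, all its letters in capitals.
Gla (chrX:134601182-134601244, minus strand): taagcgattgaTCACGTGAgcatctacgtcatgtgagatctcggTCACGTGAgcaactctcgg
Mcoln1 (chr8:3500436-3500491, plus strand): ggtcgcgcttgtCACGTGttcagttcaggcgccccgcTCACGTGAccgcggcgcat
Atp6v0d1 (chr8:105566050-105566079, minus strand): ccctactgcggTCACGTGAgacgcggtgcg
Atp6v0e (chr17:26676387-26676416, plus strand): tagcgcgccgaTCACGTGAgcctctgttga
Atp6v1a (chr16:44139373-44139402, minus strand): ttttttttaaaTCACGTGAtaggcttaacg
Lamp1 (chr8:13159088-13159163, plus strand): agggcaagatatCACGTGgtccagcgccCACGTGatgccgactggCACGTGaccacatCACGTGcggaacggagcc
Atp6v0b (chr4:117887330-117887377, minus strand): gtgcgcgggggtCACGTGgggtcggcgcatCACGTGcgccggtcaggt
Naglu (chr11:101070009-101070038, plus strand): caaccttcaggtCACGTGgcccgaggtcgg

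Lamp1 held 4 E-boxes within its window, and Gla held a pair of the extended form. Single matches in Gaa and Glb1 complete the 10 genes. Over these genes there were 16 matches, 6 of them extended, whose first bases ran from -227 to 4 relative to the start site, and 11 lay within the 100 bases before it, as the plot of match positions shows. A match is a match of letters only, and binding was not measured in these data.

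**Figure D1:**
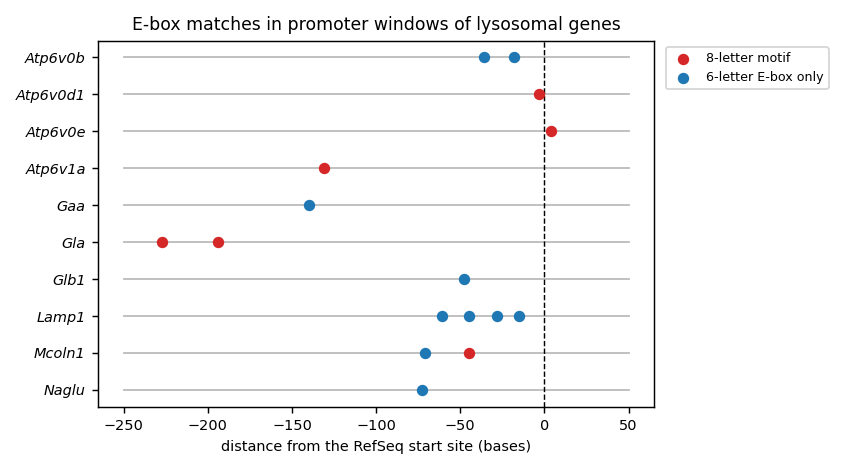
Positions of E-box matches in the promoter windows of the 10 lysosomal genes that hold one, with the distance of the first base of the match from the RefSeq start site in bases on the horizontal axis. Each grey line is a window, red points are the extended form (6 matches), blue points are the E-box alone, the dashed line is the start site, and 11 of the 16 matches lie within 100 bases before it.

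The intensities are on a linear scale, with maxima of 11778 to 12309 on the 4 arrays and medians whose log2 was 4.17 to 4.24. Transcripts typical of myeloid cells were abundant on every array, with S100a8, a calcium-binding protein of neutrophils, near the array maximum (10958 in kdLNC, 10240 in kdNC, 10419 in oeLNC and 11020 in oeNC) and Csf1r, the receptor of monocytes for M-CSF, at 2758 in kdLNC, 3133 in kdNC, 3753 in oeLNC and 3483 in oeNC. Of the 8 measured mature neutrophil markers, 5 had kdLNC values at least 1.5-fold below kdNC, as did 1.84% of all genes above the filter, and the summed intensity of the list was 29289.5 in kdLNC, 37099 in kdNC, 37663 in oeLNC and 40078 in oeNC, with all 8 above the filter. Markers of eosinophils summed to 1407 in kdLNC, 2681 in kdNC, 1198 in oeLNC and 1283 in oeNC, and those of macrophages to 2405 in kdLNC, 2399 in kdNC, 2522 in oeLNC and 2639 in oeNC. That sum is dominated by Adgre1 and Cd68, and several dimmer markers, though not Mertk, were highest in oeNC and lowest in kdNC. Marco, a scavenger receptor of macrophages, had 64.5 in kdLNC, 44.3 in kdNC, 77.2 in oeLNC and 147 in oeNC, and F13a1, a coagulation factor subunit made by monocytes, had 94.0 in kdLNC, 58.6 in kdNC, 110.2 in oeLNC and 155 in oeNC. Markers of mast cells and basophils summed to 1648 in kdLNC, 2021 in kdNC, 991 in oeLNC and 818 in oeNC, and those of B cells to 7588 in kdLNC, 7006 in kdNC, 5131 in oeLNC and 4225 in oeNC. The log2 ratio of the 3′ to the 5′ probe set of actin, a measure of RNA integrity, was 1.96 in kdLNC, 1.61 in kdNC, 1.97 in oeLNC and 1.96 in oeNC. That of Gapdh was 0.69 in kdLNC, 0.51 in kdNC, 0.65 in oeLNC and 0.53 in oeNC. The part of cell composition and RNA quality in the values below was not tested, and in bulk RNA fewer cells of a type and less RNA per cell cannot be told apart.

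Across the 37 lysosomal genes, both manipulations were accompanied by small differences. After knockdown, 25 genes had higher and 12 lower values in kdLNC than in kdNC, with a median log2 difference of 0.087, where the median of all genes above the filter was -0.046. With exogenous lnc-C/EBPβ, 14 genes were higher and 23 lower in oeLNC than in oeNC, and the median was -0.051 against -0.020 for all genes. The median of the overexpression pair was 0.015 after a further quantile normalisation and 0.0081 after loess, so its sign depended on the scaling. The summed intensity of the 37 genes was 38729.9 in kdLNC, 37033 in kdNC, 37596 in oeLNC and 37323 in oeNC. A difference of at least 1.5-fold was reached by 0 genes upward and 1 gene downward in kdLNC, where 2.25% and 1.84% of all genes above the filter were that far higher or lower. In oeLNC it was reached by 0 genes in either direction, where 3.23% of all genes were higher and 5.26% were lower. A count of 0 or 1 in 37 is not far from those shares.

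For a yardstick, the control arrays were set against each other (oeNC minus kdNC), since neither received the lentivirus under study. That difference contains vector, culture and array at once, and its SD, taken over the 500 genes of closest mean level, was 0.46 to 0.63 on the log2 scale for these genes, a description of spread that is no replicate error. Of the 37 lysosomal genes, 36 differed by less than that SD after knockdown, Arsb being the exception, and 37 with exogenous lnc-C/EBPβ. Over all genes above the filter the SD was 0.53 for the control difference. It was 0.28 for the knockdown difference and 0.34 for the overexpression difference. The yardstick is thus wide for genes in general, and these counts do not set the lysosomal genes apart. Between the control arrays 2 of the genes were at least 1.5-fold higher in oeNC and 3 were lower, where 9.09% and 12.2% of all genes were. The plot of differences shows these spreads with the value of each gene.

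**Figure D2:**
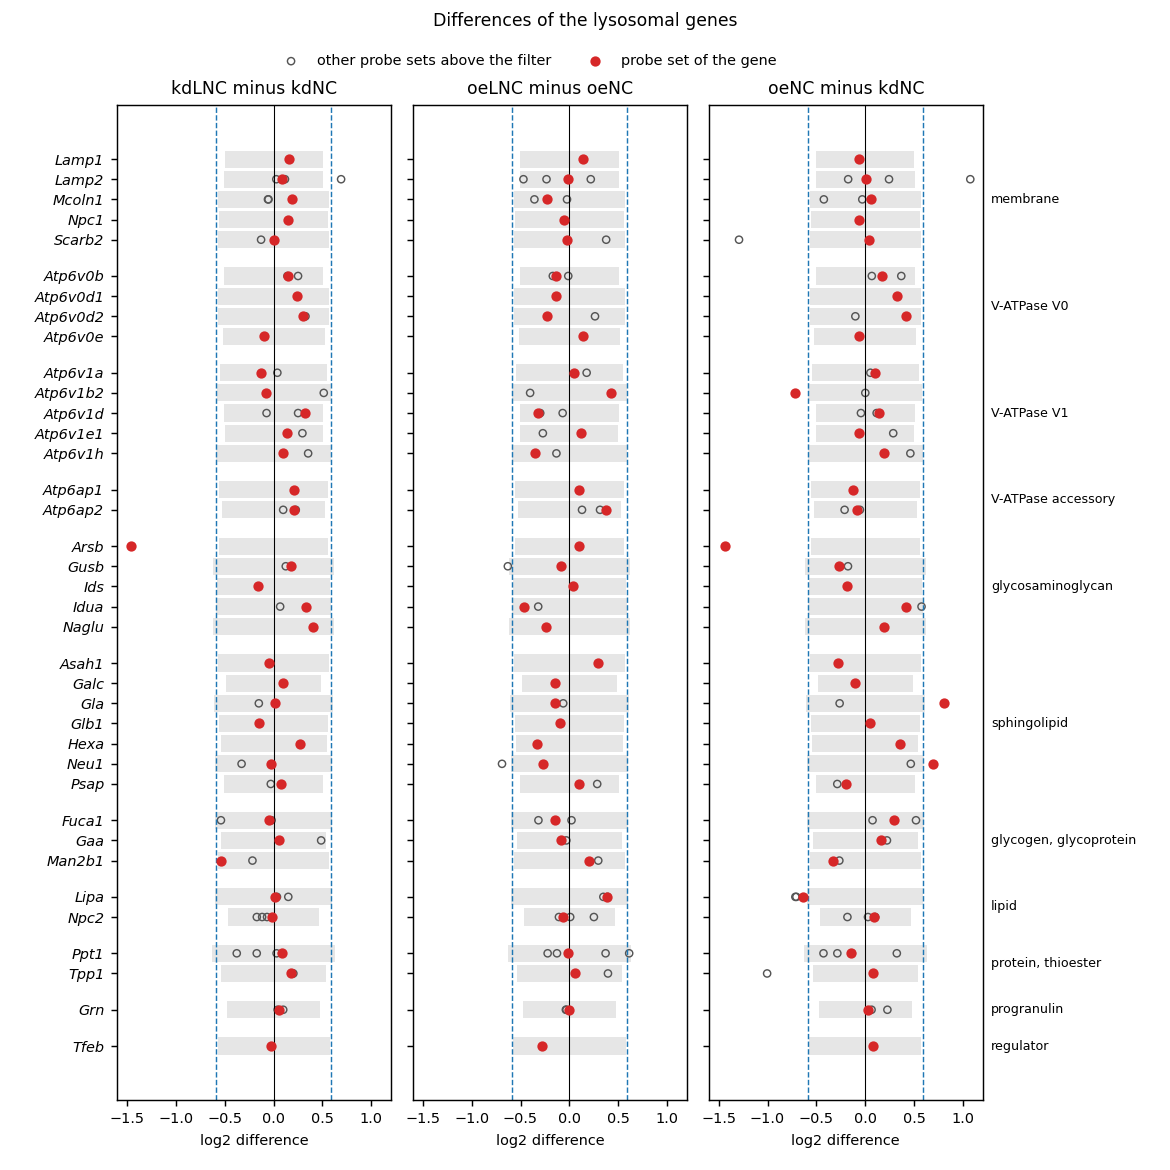
Log2 differences of the 37 lysosomal genes in the knockdown pair (left), the overexpression pair (middle) and between the control arrays (right), grouped by role from membrane proteins to Tfeb. Red points are the probe set of the gene, open circles its other probe sets above the filter, grey bars the SD of the control difference at that level on either side of 0, and dashed lines 1.5-fold; in the left panel Arsb alone (-1.46) lies outside the grey bar at the probe set of the gene, and in the middle panel no red point does.

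Of the 5 membrane protein genes measured, 5 had the higher value in kdLNC and 1 in oeLNC. Their medians were 0.15 after knockdown and -0.025 with exogenous lnc-C/EBPβ. Among all genes, lower values were the more common direction in both pairs, as given above. Lamp1, a heavily glycosylated protein that lines the lysosomal membrane, had intensities of 2899 in kdLNC and 2607 in kdNC, and of 2739 in oeLNC and 2487 in oeNC. It was thus higher in both treated cultures, by log2 differences of 0.15 and 0.14. Lamp2, which lines the membrane with Lamp1 and takes part in autophagy, had 1540 in kdLNC, 1450 in kdNC, 1442 in oeLNC and 1460 in oeNC. All 4 values lay within 0.095 on the log2 scale of each other, with differences of 0.087 after knockdown and -0.018 with exogenous lnc-C/EBPβ. A dimmer Lamp2 probe set that can match several transcripts read otherwise, with 172 in kdLNC and 106 in kdNC, and 161 in oeLNC and 224 in oeNC, which gave differences of 0.69 and -0.47, and of 1.07 between oeNC and kdNC. Scarb2, the receptor that carries glucocerebrosidase to the lysosome, spanned 0.041 on the log2 scale over the 4 arrays, from 296 in kdNC to 304 in oeNC, the smallest range among the 37 genes. A second probe set of Scarb2 had 212 in kdLNC, 232 in kdNC, 123 in oeLNC and 94.7 in oeNC, so that it was lower in both cultures with overexpression vectors, with a log2 difference of -1.29 for oeNC minus kdNC. Mcoln1, a calcium channel of the lysosomal membrane, had 134 in kdLNC and 118 in kdNC (difference 0.19), and 105 in oeLNC and 123 in oeNC (-0.22). Its kdLNC and oeNC values were both above those of kdNC and oeLNC at this probe set, which can match several transcripts. The other Mcoln1 probe sets above the filter gave -0.057 and -0.052 after knockdown. With exogenous lnc-C/EBPβ they gave -0.36 and -0.025. Npc1, which hands cholesterol out of the lysosome, had 155 in kdLNC, 140 in kdNC, 129 in oeLNC and 134 in oeNC.

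**Figure D3:**
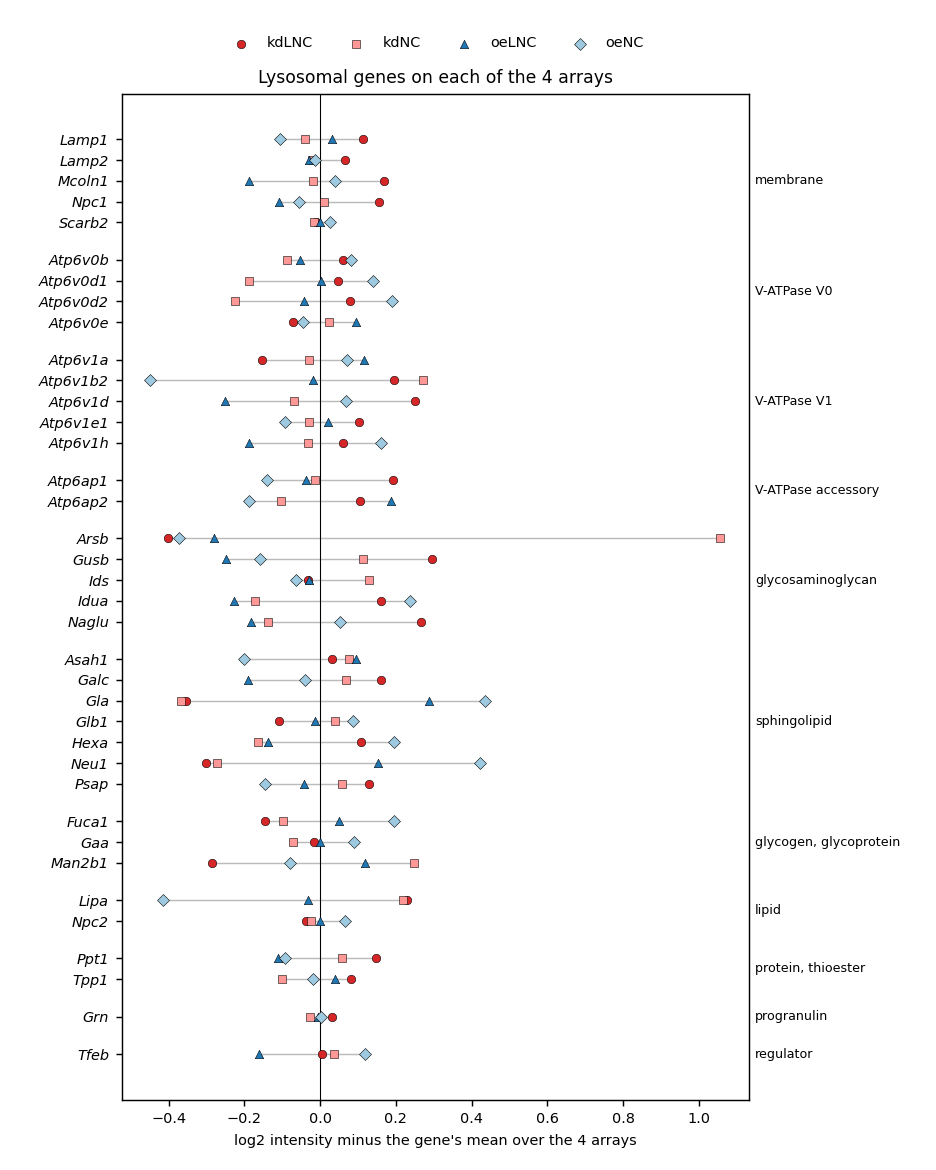
Log2 intensity of each of the 37 lysosomal genes on the 4 arrays, minus the mean of that gene over the arrays, grouped by role as labelled at the right. Each gene has 1 point per array (red circle kdLNC, pink square kdNC, dark blue triangle oeLNC, light blue diamond oeNC) and a grey line for its range; Arsb has the widest range, through the single high value in kdNC, and Scarb2 the narrowest (0.041).

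The proton pump was represented by 11 measured genes of the V0 sector, the V1 sector and the accessory proteins. Of these, 8 had their higher value in kdLNC rather than kdNC and 6 in oeLNC rather than oeNC. The median log2 differences were 0.15 and 0.045, and the directions of all genes are given above. None of the 11 reached 1.5-fold in either pair. Of all genes above the filter, 2.25% were that far higher and 1.84% that far lower in kdLNC, and 3.23% and 5.26% in oeLNC. None among 11 is not far from those shares. In the V0 sector, Atp6v0d1, the widely used form of the d subunit that joins V0 to the central stalk, had 768 in kdLNC and 653 in kdNC, and 744 in oeLNC and 819 in oeNC. The differences were 0.24 after knockdown and -0.14 with exogenous lnc-C/EBPβ. Atp6v0d2, the form of the same subunit known from osteoclasts and macrophages, had 59.0 in kdLNC and 47.9 in kdNC (0.30), and 54.3 in oeLNC and 63.8 in oeNC (-0.23). For both d subunit genes the kdLNC and oeNC arrays lay above kdNC and oeLNC, although a second Atp6v0d2 probe set gave 0.33 after knockdown and 0.26 with exogenous lnc-C/EBPβ. Atp6v0b, a subunit of the proton-carrying ring, had 2474 in kdLNC, 2233 in kdNC, 2285 in oeLNC and 2512 in oeNC, again with kdLNC and oeNC above the other arrays. Atp6v0e, a small subunit of V0, ran the other way with 1909 in kdLNC and 2041 in kdNC, and 2147 in oeLNC and 1946 in oeNC (-0.096 and 0.14).

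In the V1 sector, Atp6v1d of the central stalk had 1788 in kdLNC and 1432 in kdNC, and 1263 in oeLNC and 1575 in oeNC. The differences were of like size and opposite sign, 0.32 and -0.32, and so were those of another probe set that can match several transcripts (0.25 and -0.30), but the remaining probe set of Atp6v1d was nearly level (-0.072 and -0.070). Atp6v1h, a regulatory subunit, had 350 in kdLNC and 329 in kdNC (0.092), and 295 in oeLNC and 376 in oeNC (-0.35). At this probe set the lowest value was thus that of oeLNC. A dimmer Atp6v1h probe set had 62.0 in kdLNC and 48.5 in kdNC (0.35), and 60.8 in oeLNC and 66.7 in oeNC (-0.13), with kdNC the lowest. Atp6v1b2, the noncatalytic subunit that shares the ATP-binding sites, had 582 in kdLNC and 613 in kdNC, and 501 in oeLNC and 372 in oeNC. Its difference of 0.43 in the overexpression pair was the largest upward difference of the 37 genes there. The low array was the control oeNC, whose log2 difference from kdNC was -0.72. A dimmer Atp6v1b2 probe set had the opposite signs, 0.51 after knockdown and -0.40 with exogenous lnc-C/EBPβ. Atp6v1a, the catalytic subunit, had 935 in kdLNC and 1019 in kdNC (-0.12), and 1126 in oeLNC and 1092 in oeNC (0.045). A second Atp6v1a probe set gave 0.039 after knockdown and 0.18 with exogenous lnc-C/EBPβ. Atp6v1e1 of the peripheral stalk had 2906 in kdLNC, 2651 in kdNC, 2746 in oeLNC and 2536 in oeNC, higher in both treated cultures by 0.13 and 0.11. That probe set can match several transcripts, and a dimmer one that is specific to Atp6v1e1 gave 0.29 and -0.27, so the sign in the overexpression pair depended on the probe set.

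Both accessory genes of the pump were higher in both treated cultures. Atp6ap2, also known as the prorenin receptor, had 1891 in kdLNC and 1638 in kdNC, and 2002 in oeLNC and 1546 in oeNC. Its log2 differences were 0.21 and 0.37, and its other probe sets gave 0.23 and 0.31, and 0.098 and 0.13. Atp6ap1, a partner of V0 in assembly, had 813 in kdLNC and 704 in kdNC (0.21), and 693 in oeLNC and 646 in oeNC (0.10).

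Arsb was the only one of the 37 genes past 1.5-fold in the knockdown pair. It encodes arylsulfatase B, which removes sulfate groups from dermatan and chondroitin sulfate. Its intensity was 121 in kdLNC and 332 in kdNC, and 131 in oeLNC and 123 in oeNC. The kdNC array stood apart and the other 3 lay close together, so that the log2 difference was -1.46 for kdLNC minus kdNC, 0.093 for oeLNC minus oeNC and -1.43 for oeNC minus kdNC, the first and the last of which share the kdNC array. The SD of the control difference at this level was 0.56. This was the only Arsb probe set above the filter and the dimmer ones differed by 0.063 and -0.57 after knockdown. The summed markers of eosinophils, given above, were also highest on the kdNC array, and 4 of those 5 genes had kdLNC values at least 1.5-fold below kdNC, against 1.84% of all genes. Their part in the Arsb value was not tested.

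The other enzymes that degrade glycosaminoglycans differed less. Idua, which cleaves iduronic acid from dermatan and heparan sulfate, had 127 in kdLNC and 100.5 in kdNC, and 96.7 in oeLNC and 134 in oeNC. Its differences were 0.33 and -0.47, -0.47 being the lowest of the set in the overexpression pair, and a second probe set gave 0.067 and -0.32. Naglu, an enzyme of heparan sulfate breakdown, had 88.0 in kdLNC and 66.6 in kdNC (0.40, the highest of the set after knockdown), and 64.5 in oeLNC and 76.0 in oeNC (-0.24). For Idua and Naglu the arrays kdLNC and oeNC were again above kdNC and oeLNC. Gusb, the beta-glucuronidase, had 234 in kdLNC and 206 in kdNC (0.18), and 160 in oeLNC and 170 in oeNC (-0.090), while a dimmer Gusb probe set gave 0.12 and -0.63. Ids, the iduronate sulfatase, had 114 in kdLNC and 128 in kdNC (-0.16), and 114 in oeLNC and 112 in oeNC (0.034).

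Of the 7 genes for sphingolipid breakdown, 4 had a higher value in kdLNC than in kdNC and 2 in oeLNC than in oeNC. In both pairs lower values were the more common direction among all genes, as given above. Hexa, the alpha subunit of beta-hexosaminidase, which degrades ganglioside GM2, had 1275 in kdLNC and 1057 in kdNC, and 1076 in oeLNC and 1354 in oeNC. The differences were 0.27 and -0.33, with kdNC and oeLNC the low arrays. Asah1, the acid ceramidase, had 702 in kdLNC and 724 in kdNC (-0.045), and 734 in oeLNC and 598 in oeNC (0.30), the control oeNC being the lowest. Glb1, the lysosomal beta-galactosidase, was lower in both treated cultures, with 78.2 in kdLNC and 86.7 in kdNC (-0.15), and 83.6 in oeLNC and 89.6 in oeNC (-0.100). Psap, the precursor of the saposins that help these enzymes, had 2745 in kdLNC, 2612 in kdNC, 2436 in oeLNC and 2270 in oeNC, with differences of 0.072 and 0.10. Galc, the galactosylceramidase, had 42.2 in kdLNC, 39.5 in kdNC, 33.1 in oeLNC and 36.7 in oeNC, with differences of 0.092 and -0.15. Both of these genes were higher in the shRNA cultures than in the cultures with overexpression vectors. A dimmer Psap probe set did not keep this order, with 502 in kdLNC, 512 in kdNC, 511 in oeLNC and 419 in oeNC.

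Gla and Neu1 differed more between the control arrays than within either pair. Gla, the alpha-galactosidase A, had 427 in kdLNC and 423 in kdNC, and 666 in oeLNC and 737 in oeNC. Neu1, the lysosomal sialidase, had 179 in kdLNC and 182 in kdNC, and 245 in oeLNC and 295 in oeNC. Both shRNA cultures were thus below both cultures with overexpression vectors, and between the control arrays Gla was higher in oeNC by 0.80 and Neu1 by 0.69 on the log2 scale, while their differences within the knockdown pair were 0.013 and -0.030. Within the overexpression pair they were -0.15 and -0.27. Vector, culture and array cannot be told apart here. Some markers of other cells were ordered the other way. All 4 measured mast cell and basophil markers and 2 of 4 B cell markers were at least 1.5-fold lower in oeNC than in kdNC, where 12.2% of all genes were. Ms4a1, which encodes CD20 of B cells, had 1384 in kdLNC, 1256 in kdNC, 318 in oeLNC and 294 in oeNC. Other markers had the order of Gla and Neu1, among them Marco and F13a1, given above. So did Mpo, Prtn3 and Elane of neutrophil progenitors, though not Ctsg. Mpo had 88.8 in kdLNC, 86.6 in kdNC, 109 in oeLNC and 133 in oeNC. Ctsg had 432 in kdLNC, 455 in kdNC, 263 in oeLNC and 263 in oeNC. The part of all these markers in the values of Gla and Neu1 was not tested. The second Gla probe set did not have this order (-0.26 between oeNC and kdNC), and the second Neu1 probe set gave 0.46 there and -0.69 for oeLNC minus oeNC.

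Man2b1, the lysosomal alpha-mannosidase that trims glycoproteins, was next to Arsb among the genes lower after knockdown. Its intensity was 506 in kdLNC and 733 in kdNC, and 670 in oeLNC and 584 in oeNC. The differences were -0.54 and 0.20, within the SD of 0.57 between the control arrays at that level, and a second Man2b1 probe set ran in the same directions (-0.22 and 0.29). Fuca1, the fucosidase of glycoproteins, had 403 in kdLNC and 417 in kdNC, and 461 in oeLNC and 511 in oeNC. Gaa, which degrades glycogen, had 146 in kdLNC and 141 in kdNC, and 148 in oeLNC and 157 in oeNC. Each of those 4 differences was smaller than 0.15. Dimmer probe sets that can match several transcripts read otherwise. For Fuca1 they gave -0.54 and -0.020 after knockdown, and 0.021 and -0.32 with exogenous lnc-C/EBPβ. For Gaa a second probe set gave 0.49 after knockdown and -0.032 with exogenous lnc-C/EBPβ.

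Lipa, the acid lipase that frees cholesterol and fatty acids, was level in the knockdown pair and lowest in oeNC. It had 657 in kdLNC and 652 in kdNC (0.0097), and 549 in oeLNC and 420.0 in oeNC (0.38). All 3 Lipa probe sets agreed on this order, with 0.38, 0.39 and 0.35 for oeLNC minus oeNC and -0.63, -0.72 and -0.70 for oeNC minus kdNC. Both cultures with overexpression vectors thus lay below both shRNA cultures, as they did for the summed markers of mast cells and basophils and of B cells, whose part in the Lipa values was not tested. Npc2, the soluble carrier that passes cholesterol to Npc1, had 6366 in kdLNC, 6428 in kdNC, 6530 in oeLNC and 6835 in oeNC, within 0.10 on the log2 scale. Tpp1, a tripeptidyl peptidase, had 1172 in kdLNC and 1033 in kdNC (0.18), and 1138 in oeLNC and 1093 in oeNC (0.059). Ppt1, which removes fatty acids from proteins, had 400.1 in kdLNC, 376 in kdNC, 335 in oeLNC and 339 in oeNC. Grn, which encodes progranulin, was even across the arrays, with 3317 in kdLNC, 3189 in kdNC, 3236 in oeLNC and 3254 in oeNC, a range of 0.057.

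Tfeb itself had 133 in kdLNC and 136 in kdNC, and 118 in oeLNC and 144 in oeNC. It was level after knockdown (-0.031) and lower with exogenous lnc-C/EBPβ by a difference of -0.28, inside the SD of 0.57 at its level. The genes with and without an E-box in the promoter window overlapped in their differences. The 10 measured genes with an E-box had medians of 0.10 after knockdown and -0.12 with exogenous lnc-C/EBPβ, and the 22 genes with a window but no match had 0.079 and -0.017. The ranges of the genes with an E-box, -0.15 to 0.40 after knockdown and -0.24 to 0.14 with exogenous lnc-C/EBPβ, lay inside those of the genes without, apart from the highest knockdown value, that of Naglu. The 5 genes without a window were Asah1, Atp6v0d2, Atp6v1b2, Atp6v1h and Npc1.

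The pairs share no array, so the sign of a gene in one can be set beside its sign in the other. Of the 37 genes, 18 (48.6%) had a positive knockdown difference together with a negative overexpression difference, against 23.9% of the genes above the filter. The reverse held for 7 (18.9%, against 29.9%), 7 were higher in both treated cultures (18.9%, against 16.7%) and 5 were lower in both (13.5%, against 28.6%). Idua, Naglu, Atp6v1d, Hexa, Atp6v0d2 and Mcoln1 had the larger differences among the 18. Other probe sets of Atp6v1d, Atp6v0d2 and Mcoln1 included some without this pair of signs, as given above. Scarb2, Grn, Lamp2 and Gla were among those close to 0 in at least 1 pair. Over the 37 genes Pearson's r between the knockdown and the overexpression difference was -0.32 and Spearman's rho -0.41, and over all genes above the filter they were -0.19 and -0.15. These are correlations across genes of the same 4 arrays, and genes are not independent replicates. The count was chosen after the values were seen. It was 10 of 37 after a further quantile normalisation, where 21.9% of all genes had this pair of signs, and 13 when a gene was the average of its probe sets, against 26.9%. With the controls averaged it was 12, against 30.5%, but the pairs then share both control arrays.

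**Figure D4:**
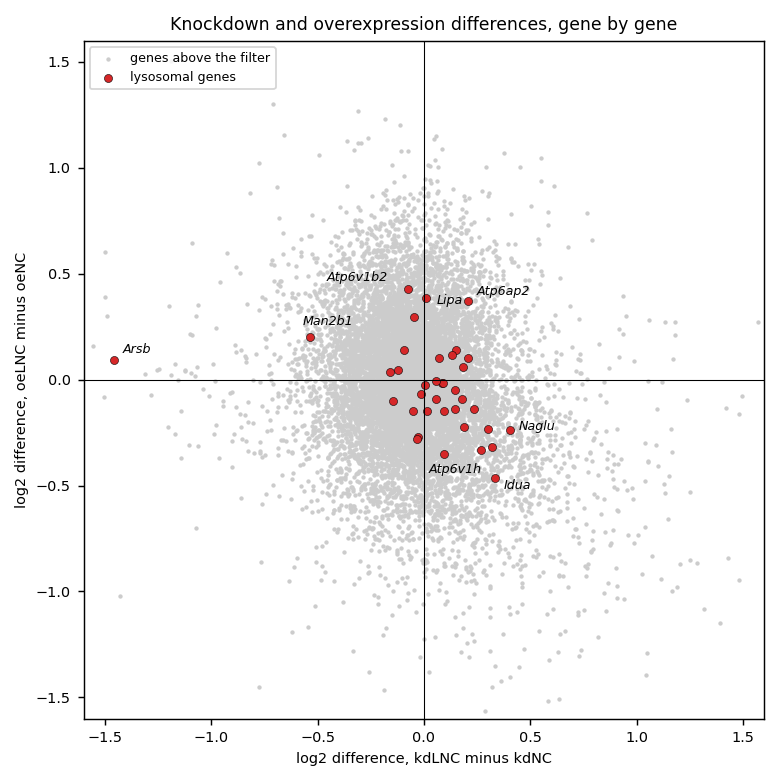
Knockdown difference (kdLNC minus kdNC, horizontal) against overexpression difference (oeLNC minus oeNC, vertical), both log2, for the 37 lysosomal genes (red) and the genes above the filter (grey). Named genes lie at the edge of the set, 18 of the 37 red points lie to the right of 0 and below it, and 18 of the grey genes fall outside the axes.

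The spread of a gene over all arrays was described by its range. It was under 0.25 on the log2 scale for 12 of the 37 (32.4%), against 15.9% of the genes above the filter and 16.2% of those above the 70th percentile of level, and its median was 0.33 against 0.49 for both. The 12 were Lamp1, Lamp2, Scarb2, Atp6v0b, Atp6v0e, Atp6v1e1, Ids, Glb1, Gaa, Npc2, Tpp1 and Grn. These ranges are of 1 probe set per gene, and other probe sets above the filter ran wider for some of the genes. A Lamp2 probe set ran from 106 in kdNC to 224 in oeNC and 1 of Scarb2 from 94.7 in oeNC to 232 in kdNC. For Tpp1 another ran from 63.5 in oeNC to 147 in kdLNC. The limit of 0.25 was set after the values were seen.

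Further probe sets gave a check of direction within the arrays. The 37 genes had 92 probe sets annotated to 1 symbol, of which 75 were above the filter, and 24 genes had more than 1 above it. Among those 24 genes all probe sets above the filter differed in the same direction for 16 after knockdown, 16 with exogenous lnc-C/EBPβ and 14 between the control arrays. The 38 further probe sets above the filter reached 1.5-fold in 1 case after knockdown (Lamp2, above) and in 3 with exogenous lnc-C/EBPβ, which were probe sets of Gusb (-0.63), Neu1 (-0.69) and Ppt1 (0.61). Between the control arrays 5 did, namely the probe sets of Lamp2 and Scarb2 given above, the remaining Lipa probe sets and 1 of Tpp1 (63.5 in oeNC, 127 in kdNC). Of all genes above the filter, 2.25% were that far higher and 1.84% lower in kdLNC, and 3.23% and 5.26% in oeLNC. Between oeNC and kdNC the shares were 9.09% and 12.2%. Those shares count 1 probe set per gene, and these probe set counts are not read as a result about the lysosomal genes. The 15 representative probe sets marked as matching more than a single transcript or gene had medians of 0.13 after knockdown and 0.10 with exogenous lnc-C/EBPβ, and the other 22, which represent different genes, had 0.050 and -0.095.

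Other genes of the same pathway were looked at as lists. Of 13 further V-ATPase subunits, 12 were measured and 6 lay above the filter, and none of the 6 reached 1.5-fold in either pair, where 2.25% and 1.84% of all genes were higher or lower in kdLNC and 3.23% and 5.26% in oeLNC. The highest of them after knockdown was Atp6v1c1, a subunit of the V1 stalk, at 0.42. Of 19 further hydrolases and helpers, 14 were measured, all above the filter, and 2 were at least 1.5-fold higher in kdLNC. Sumf1, which activates sulfatases such as those encoded by Arsb and Ids, had 153 in kdLNC and 92.6 in kdNC (0.72), and 80.7 in oeLNC and 135 in oeNC (-0.74), and was the only gene of this list past 1.5-fold in both pairs, while its second probe set gave 0.078 and -0.57. Acp5, the tartrate-resistant acid phosphatase, had 85.5 in kdLNC and 55.3 in kdNC (0.63), and 61.2 in oeLNC and 89.7 in oeNC (-0.55). For Sumf1 and Acp5, too, the kdLNC and oeNC values lay above those of kdNC and oeLNC.

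Among 17 other membrane proteins of the lysosome, 14 were measured and 13 were above the filter. Of the 13, 1 was at least 1.5-fold higher in kdLNC and 1 lower in oeLNC, where 2.25% and 5.26% of all genes were. Laptm5, a transmembrane protein of lysosomes in blood cells, had 2525 in kdLNC and 1587 in kdNC (0.67), and 2290 in oeLNC and 3327 in oeNC (-0.54), but its other probe sets above the filter gave -0.12, -0.35 and -0.069 after knockdown. Slc38a9, an amino acid sensor at the lysosome, had 68.9 in kdLNC and 56.3 in kdNC (0.29), and 61.2 in oeLNC and 116 in oeNC (-0.92), the high array being oeNC, and its 6 other probe sets above the filter ran from -1.10 to 0.30 in the overexpression pair. In the list of TFEB relatives and nutrient-sensing proteins, 19 of 20 genes were measured, all above the filter. Of these, 1 was at least 1.5-fold lower in oeLNC, where 5.26% of all genes were. None reached 1.5-fold upward in oeLNC, where 3.23% of all genes did. In kdLNC none did in either direction, where 2.25% of all genes were higher and 1.84% lower. The gene lower in oeLNC was Flcn, which acts on the Rag GTPases upstream of TFEB. It had 566 in kdLNC and 516 in kdNC (0.13), and 544 in oeLNC and 882 in oeNC (-0.70), with a difference of 0.77 between oeNC and kdNC, while its second probe set above the filter gave -0.039 in the overexpression pair. Between the control arrays 2 genes of this list were at least 1.5-fold higher in oeNC and 2 were lower, where 9.09% and 12.2% of all genes were. The close relatives of Tfeb had differences of -0.046 in both pairs for Tfe3, -0.28 and 0.25 for Mitf, and -0.17 and 0.13 for Tfec.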

How the data were processed

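Total RNA of the 4 cultures was labelled and hybridised to Affymetrix mouse arrays. The authors deposited 1 intensity per probe set and array, already normalised and summarised on a linear scale, and the submitters' processing notes name RMA, whose version and settings are not given in the sources used here. No background estimate was used, so signal over background is not known. Of 45101 probe sets, 34958 carry 1 gene symbol in the platform annotation, 932 several and 9211 none, and only those with 1 symbol were used. The log2 of each deposited intensity was taken, with no further normalisation, and differences were formed within the knockdown pair, within the overexpression pair and between the controls. The tools were Python 3.11.15, scipy 1.17.1, statsmodels 0.14.6, pandas 2.3.3 and numpy 2.4.6, with matplotlib 3.10.9 for the plots. The filter required a mean log2 intensity above 4.20, the 50th percentile over all probe sets. The methods name limma, which needs replicates and so could not be fitted. The calculation was tested on simulated data. Promoter sequences were those of RefSeq (GRCm38.p6).

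The genes, lists, thresholds and comparisons were chosen with earlier results of these data known. Values on all arrays are given for genes past 1.5-fold, the 5 largest differences in each direction of each pair, Tfeb, Lamp1, Lamp2 and the Atp6v0d genes, and for pathway genes past 1.5-fold (at most 4 per list), and others were added for completeness. The alternatives were quantile normalisation, median centring, loess normalisation of each pair, averaging the probe sets of a gene, leaving out probe sets shared by several transcripts, a filter on 1 array of the pair, at the 70th percentile or absent, averaging the controls, and thresholds of 1.3-fold and 2-fold.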

Additional observations from a re-analysis of the deposited data

How the results depend on the processing

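No paired analysis was possible because a group consists of a single array, and for the same reason no replicate could be left out. The median differences of the 37 lysosomal genes stayed within 0.1 on the log2 scale of the values given under every alternative run. That limit is wider than each of the medians themselves, so staying within it does not show stability. The knockdown median (0.087 as deposited) fell to 0.024 over the 30 genes left once shared probe sets were dropped. It was 0.066 to 0.11 under the other alternatives. The overexpression median (-0.051 as deposited) turned positive after quantile normalisation (0.015) and loess (0.0081). The median of the control arrays (0.041) turned negative after quantile normalisation (-0.0098). By construction, a threshold of 1.3-fold gave 1 gene higher and 2 lower in kdLNC, 2 higher and 1 lower in oeLNC, and 4 higher in oeNC than in kdNC, and a threshold of 2-fold gave 0 higher and 1 lower in oeNC. With the controls averaged, 1 gene (Arsb) was at least 1.5-fold lower in oeLNC, since that mean holds the high kdNC value. With the mean of all probe sets, 0 genes were higher in oeNC. After quantile normalisation 10 genes were higher in kdLNC with a lower value in oeLNC, against 18 as deposited, and the cause was not tested. Of 608 differences of single genes under alternatives, 601 moved by less than the control SD, 7 moved by more and 57 changed sign. That SD is wider than nearly all of the knockdown and overexpression differences themselves. A difference could therefore vanish or reverse and still count among the 601, so that count does not show stability. The Arsb knockdown difference was -0.66 with the mean of its probe sets and -0.74 with the mean of both controls. Excluding probe sets that can match several transcripts left 30 of the 37 genes.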

Other observations

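Genes of autophagy, which delivers cargo to the lysosome, included 1 with large values of opposite sign. Becn1, a subunit of the lipid kinase complex that starts autophagosome formation, had 472 in kdLNC and 252 in kdNC, a log2 difference of 0.91, and 227 in oeLNC and 445 in oeNC, a difference of -0.97. Its second probe set above the filter gave -0.24 and -0.40. The other 12 autophagy genes stayed under 1.5-fold in both pairs. Of all genes, 2.25% were that far higher in kdLNC and 5.26% that far lower in oeLNC. Between the control arrays 4 of the 13 autophagy genes were at least 1.5-fold higher in oeNC than in kdNC, where 9.09% of all genes above the filter were. Sqstm1, a receptor for autophagic cargo that is also a target of TFEB, had differences of -0.13 after knockdown and 0.045 with exogenous lnc-C/EBPβ.

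The 9 genes that sort enzymes to the lysosome, such as the mannose 6-phosphate receptors, were all above the filter, and none reached 1.5-fold in either pair. Over all 6 pathway lists, 74 genes lay above the filter, of which 4 reached 1.5-fold upward and 0 downward in kdLNC, where 2.25% and 1.84% of all genes did. In oeLNC the counts were 0 upward and 4 downward, where the shares of all genes were 3.23% and 5.26%.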
